A study of Homo sapiens with 36 samples.

Results

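The change of miRNA levels along plasma membrane damage-dependent senescence (PMD-Sen) was measured between the late time points, D6, D8 and D16, and the early time points, D0, D1 and D2. The 12 libraries, 6 late and 6 early, were chosen by their treatment labels alone out of 36 libraries in the series, and every miRNA of the count table was considered. All libraries came from WI-38 cells, a strain of normal diploid fibroblasts from human lung. PMD-Sen cells had received 0.0095% SDS, a detergent that injures the plasma membrane, in the medium for 24 h, and days were counted from its washout, so D0 cells had already been exposed. The remaining libraries were D3 and D4 of the same course, a parallel course of cells given 250 nM doxorubicin (DXR) for 24 h (DNA damage response-dependent senescence, DDR-Sen), proliferating untreated cells (Ctrl) and replicatively senescent cells (RS). Every condition had 2 libraries, which the labels call biological replicates, and all came from 1 cell strain. The late against early contrast uses no Ctrl library.

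Cellular senescence is a lasting arrest of the cell cycle accompanied by a secretory program, and it builds up over days after the triggering injury. miRNAs are short RNAs that guide Argonaute proteins to partly complementary mRNAs, mostly through the seed, the bases 2 to 8 of the mature strand, and lower the stability or translation of those mRNAs. Each hairpin precursor can give a 5p and a 3p mature strand, and miRNAs that share a seed have overlapping predicted targets.

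The sequences of the miRNAs on which the comparison turned are shown with the seed in capitals, so that shared seeds can be read off directly. They are RefSeq mature sequences on build GRCh38.p14, written 5′ to 3′. The first set holds miRNAs whose level was lower in late PMD-Sen cells.
miR-320b: aAAAGCUGgguugagagggcaa
miR-320c: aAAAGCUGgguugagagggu
miR-155-5p: uUAAUGCUaaucgugauagggguu
miR-92a-3p: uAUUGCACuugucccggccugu
miR-17-5p: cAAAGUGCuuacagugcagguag
miR-20a-5p: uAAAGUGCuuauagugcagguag
miR-214-3p: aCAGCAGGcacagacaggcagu
miR-29b-1-5p: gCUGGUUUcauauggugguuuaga
miR-23a-5p: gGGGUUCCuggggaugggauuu
miR-193a-5p: uGGGUCUUugcgggcgagauga
miR-122-5p: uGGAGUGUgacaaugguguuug
let-7b-5p: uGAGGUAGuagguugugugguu
let-7c-5p: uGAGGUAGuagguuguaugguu
The second set holds miRNAs whose level was higher in late PMD-Sen cells.
miR-30a-5p: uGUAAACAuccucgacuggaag
miR-30c-5p: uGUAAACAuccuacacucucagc
miR-30e-5p: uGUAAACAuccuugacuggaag
miR-10a-5p: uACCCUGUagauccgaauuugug
miR-335-3p: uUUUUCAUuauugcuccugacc
miR-34a-5p: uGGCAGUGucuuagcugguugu
miR-370-3p: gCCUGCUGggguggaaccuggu
miR-493-5p: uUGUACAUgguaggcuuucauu
miR-127-3p: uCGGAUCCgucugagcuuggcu
miR-379-5p: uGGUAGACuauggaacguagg
miR-23b-3p: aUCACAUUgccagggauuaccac

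The libraries differed in depth, and 3 early ones had the highest slopes of relative level on GC content. Early libraries held 81668 to 378489 counts (median 183466.5) and late libraries 325893 to 1933435 (median 459165.5), so depth and stage moved together, whereas early and late DDR-Sen libraries held 311049 to 1010185 and 323231 to 558755 counts. For each library, the log2 CPM (counts per 1000000, scaled by TMM) of a miRNA was taken minus its mean over all 36 libraries. The slope of this deviation on the GC content of the mature miRNA, per 10 percentage points, is called the GC slope. It was 0.307 in D0 replicate 1, 0.294 in D2 replicate 2 and 0.289 in D1 replicate 2. The highest slope of the other 33 libraries was 0.244, in RS replicate 1, not far below these, and RS replicate 2 had -0.179. The Ctrl libraries had slopes of 0.0955 and 0.102. The other 3 early libraries had slopes of -0.107 to -0.0407 and the late ones of -0.228 to 0.0513. Results are therefore also given without these 3 early libraries of steep GC slope, an alternative that was chosen after seeing the data and that leaves 1 library per early day. Across the tested miRNAs the log2 CPM of the 2 libraries of a day correlated with r of 0.937 to 0.987. Of 8 fibroblast markers 7 were tested, and the 8 fibroblast miRNAs summed to 80554 to 153231 CPM in early and 94614 to 181813 CPM in late libraries. Most of this sum was miR-21-5p and miR-10a-5p, and miR-10b-5p of the same list, with 0 to 8 counts per library, was not tested.

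Between late and early PMD-Sen cells, 121 of the 360 tested miRNAs changed (33.6%; quasi-likelihood test in edgeR, p adjusted after Benjamini-Hochberg and below 0.05). The level of 56 (15.6%) rose and that of 65 (18.1%) fell, and the median log2 fold change over all 360 was -0.03. Most changes were moderate, since 82 of the 121 stayed under 2-fold, and 39 (10.8%) went beyond it, 8 higher (2.22%) and 31 lower (8.61%). At the thresholds of the study, an unadjusted p below 0.05 with a change beyond 2-fold, 49 passed (13.6%), 13 higher (3.61%) and 36 lower (10%). All 6 late libraries lay beyond all 6 early ones in 52 miRNAs (14.4%), 26 higher (7.22%) and 26 lower (7.22%). The shares over all 360 are the background against which the counts of each family and list are to be read. Levels here are shares of the miRNA counts of a library, and in bulk RNA fewer cells with a miRNA and less of it per cell cannot be told apart.

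Without the 3 early libraries of steep GC slope 75 miRNAs were called, 40 higher and 35 lower, and 63 of the 75 were among the 121. Of the 79 miRNAs chosen for naming, 46 kept their direction and their side of the threshold there, among them miR-155-5p (-1.13), miR-92a-3p (-0.80), miR-214-3p (-0.72), miR-10a-5p (0.63) and miR-335-3p (1.54) with these log2 fold changes. Leaving out D0 replicate 1 alone left 91 calls and lowered the number that fell from 65 to 42. Without the filter on low counts the calls were 65 higher and 37 lower. With the log2 library total as a covariate 38 miRNAs were called, 28 of them among the 121, and 25 of the 79 kept their direction and their side of the threshold. Where a call was lost there, depth and stage cannot be told apart.

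The miRNAs that changed more than 2-fold with no overlap of the libraries were 4 that rose and 16 that fell. miR-335-3p, from an intron of the imprinted gene MEST (chr7:130496162-130496183 on the plus strand), had the largest rise. It was at 18.4 to 70.1 CPM (median 49.8) in early and 107 to 234 CPM (median 157) in late libraries (log2 fold change 1.83, SE 0.31, adjusted p = 4.32e-05). D0 replicate 1, its lowest early library, held only 2 counts, while every late library held at least 53. miR-490-3p was at 12.6 to 36.8 CPM (median 21.2) in early and 46.2 to 76.7 CPM (median 59.4) in late libraries (log2 fold change 1.43, SE 0.31, adjusted p = 0.000595), with 2 to 8 counts per early library. Both strands of the miR-30a hairpin rose more than 2-fold. The 3p strand, miR-30a-3p, was at 267 to 334 CPM (median 283) in early and 494 to 704 CPM (median 578) in late libraries (log2 fold change 1.00, SE 0.14, adjusted p = 3.08e-06). Among the falls, miR-1292-5p was scarce, at 33.4 to 113 CPM (median 46.4) in early and 6.60 to 33.2 CPM (median 14.0) in late libraries (log2 fold change -1.79, SE 0.45, adjusted p = 0.00277). miR-769-3p was scarce too, at 18.3 to 50.4 CPM (median 23.7) in early and 2.76 to 15.4 CPM (median 9.03) in late libraries (log2 fold change -1.56, SE 0.59, adjusted p = 0.0396). Neither was called without the 3 early libraries (adjusted p = 0.178 and 0.306), and the call of miR-769-3p was lost in 8 of 12 fits that each left out 1 library, with adjusted p up to 0.139.

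**Figure D1:**
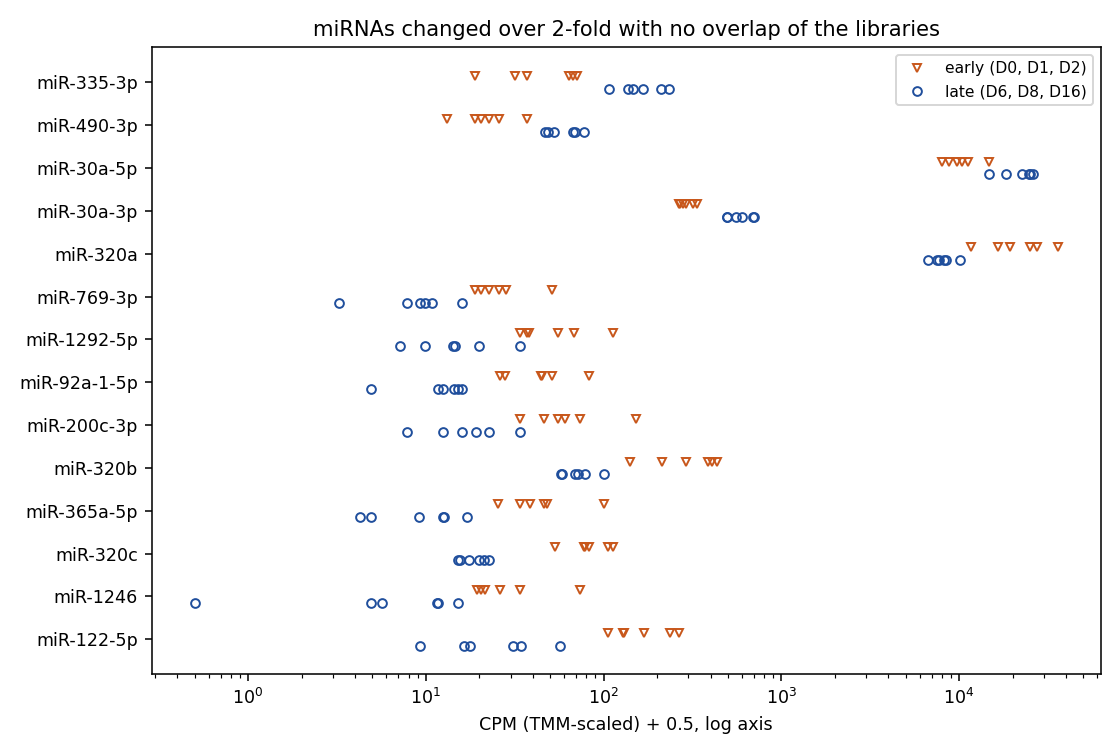
Level of miRNAs that changed over 2-fold with all late libraries beyond all early ones, the 4 that rose and the 10 largest falls, in TMM-scaled CPM plus 0.5 on a log axis, with 1 symbol per library (early, triangles; late, circles). The 4 miRNAs at the top were higher and the other 10 lower in late PMD-Sen cells, among which miR-320a was by far the most abundant.

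Of 5 listed members of the miR-320 family, whose hairpins are processed without the usual Drosha step, 3 were tested. All 3 fell, against 18.1% of all 360. Together they summed to 11899 to 36527 CPM in early and to 6746 to 10302 CPM in late libraries. miR-320a, by far the most abundant member, was at 11706 to 36006 CPM (median 22206) in early and 6672 to 10183 CPM (median 7942) in late libraries (log2 fold change -1.47, SE 0.21, adjusted p = 2.65e-06). Its early libraries were spread, from 11706 CPM in D2 replicate 1 to 36006 CPM in D1 replicate 2, and the late ones lay close together below them. miR-320b is encoded at chr1:116671787-116671808 on the plus strand and chr1:224257049-224257070 on the minus strand, and was at 140.2 to 432 CPM (median 338) in early and 57.2 to 99.5 CPM (median 70.0) in late libraries (log2 fold change -2.10, SE 0.27, adjusted p = 8.26e-07). miR-320c is encoded at chr18:21683559-21683578 on the plus strand and chr18:24321716-24321735 on the plus strand, and was at 52.6 to 113 CPM (median 80.4) in early and 14.6 to 22.0 CPM (median 18.1) in late libraries (log2 fold change -2.20, SE 0.30, adjusted p = 1.76e-06). In both, every late library lay below every early one. miR-320b and miR-320c share the seed and most of the other bases, so the authors' counting may have split reads between them. A mature sequence of miR-320a was not at hand. Whether reads were shared between miR-320a and the 2 far scarcer members was not tested, so the 3 falls may not be separate observations. The 3 calls remained without the 3 early libraries of steep GC slope, at smaller log2 fold changes of -0.94 for miR-320a, -1.53 for miR-320b and -1.92 for miR-320c. With the log2 library total as a covariate only miR-320c of the 3 was called, and the median log2 fold change of the 3 was -1.11.

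miRNAs of the miR-17-92 cluster and its paralogous clusters, which promote cell cycle entry, were lower in late cells. Of 13 tested members 8 fell and 0 rose, against 18.1% and 15.6% of all 360, with a median log2 fold change of -0.58 against -0.03. miR-92a-3p, encoded in exons of the host transcript MIR17HG and of a second lncRNA on the X chromosome (chr13:91351361-91351382 on the plus strand and chrX:134169544-134169565 on the minus strand), was at 17509.8 to 32291 CPM (median 23506) in early and 8942 to 13637 CPM (median 11945) in late libraries (log2 fold change -1.08, SE 0.13, adjusted p = 4.42e-07). Within the late stage its 2 libraries held 12114 and 13637 CPM on D6 and 9860.4 and 8942 CPM on D16. miR-17-5p (chr13:91350618-91350640 on the plus strand), which represses cell cycle inhibitors, was at 282 to 381 CPM (median 347) in early and 128 to 238 CPM (median 179) in late libraries (log2 fold change -0.87, SE 0.19, adjusted p = 0.000747), again with no overlap. miR-20a-5p has the seed of miR-17-5p and also fell, at 178 to 248 CPM (median 204) in early and 83.7 to 152 CPM (median 128) in late libraries (log2 fold change -0.68, SE 0.21, adjusted p = 0.0118).

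Other members of these clusters were less uniform. miR-106b-5p, again with the seed of miR-17-5p, was at 37.7 to 189 CPM (median 130.0) in early and 82.9 to 253 CPM (median 134) in late libraries (log2 fold change 0.18, SE 0.28, adjusted p = 0.66) and was not called. The passenger strand of 1 locus of miR-92a, miR-92a-1-5p, was at 25.6 to 82.7 CPM (median 44.3) in early and 4.40 to 15.5 CPM (median 12.9) in late libraries (log2 fold change -1.82, SE 0.47, adjusted p = 0.00296). miR-106b-3p was at 113 to 277 CPM (median 219) in early and 105 to 146 CPM (median 132) in late libraries (log2 fold change -0.73, SE 0.20, adjusted p = 0.00493). Of the 13 members 5 were called lower without the 3 early libraries, where miR-92a-1-5p and miR-20a-5p were not called (adjusted p = 0.123 and 0.125). The number called lower was 3 with the log2 library total as a covariate, 3 without the filter on low counts and 3 without D0 and D16. The call of miR-106b-3p was lost without D2 replicate 1 (adjusted p = 0.0553).

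Among families that restrain the cell cycle the called strands went in both directions. In the family of miR-15, miR-16, miR-195 and miR-497, which represses cyclins, 1 of 5 tested members fell (18.1% over all 360) and the median log2 fold change was -0.44. That member, miR-15b-5p, was at 1049.7 to 1434 CPM (median 1270.3) in early and 707 to 1166 CPM (median 945) in late libraries (log2 fold change -0.44, SE 0.16, adjusted p = 0.037), and it lost the call in 8 of the 12 fits without 1 library (adjusted p up to 0.116). In the X-linked cluster of miR-424, miR-503, miR-542 and miR-450, 2 of 7 tested members rose and 1 fell, against 15.6% and 18.1% of all 360. The one that fell, miR-424-3p, was at 1289.8 to 2573 CPM (median 1479) in early and 904 to 1286 CPM (median 1167) in late libraries (log2 fold change -0.55, SE 0.13, adjusted p = 0.00123) and was not called without the 3 early libraries (adjusted p = 0.0926). miR-503-5p, at 1169 to 2546 CPM (median 1682) in early and 1674 to 2862 CPM (median 2036) in late libraries (log2 fold change 0.32, SE 0.11, adjusted p = 0.022), rose and lost the call in 5 of the 12 fits (adjusted p up to 0.105). miR-542-3p rose as well, at 0 to 91.5 CPM (median 53.8) in early and 91.2 to 405 CPM (median 157) in late libraries (log2 fold change 1.75, SE 0.42, adjusted p = 0.00174). D1 replicate 1 and D1 replicate 2 lay at opposite ends of its early libraries, with 91.5 and 0 CPM, and without replicate 1 of D1 the fitted log2 fold change was 4.27.

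Of the 9 tested guide strands of the let-7 and miR-98 family, which oppose proliferation, 4 fell and 0 rose, against 18.1% and 15.6% of all 360, and the median log2 fold change was -0.19 (-0.03 over all 360). let-7b-5p was at 12529.8 to 23673 CPM (median 17156) in early and 9547 to 14519 CPM (median 11754) in late libraries (log2 fold change -0.57, SE 0.17, adjusted p = 0.00936), so the stages overlapped. let-7c-5p was at 535 to 1066 CPM (median 721) in early and 353 to 561 CPM (median 492) in late libraries (log2 fold change -0.64, SE 0.17, adjusted p = 0.00413). let-7e-5p was at 13442 to 22126 CPM (median 19025) in early and 12112 to 14947 CPM (median 13920.2) in late libraries (log2 fold change -0.43, SE 0.13, adjusted p = 0.00824). These strands differ by few bases and share the seed, so reads may be shared among them. let-7d-5p was at 3119 to 4953 CPM (median 3977) in early and 2773 to 3502 CPM (median 3076) in late libraries (log2 fold change -0.34, SE 0.12, adjusted p = 0.0244). The calls depended on single libraries. Those of let-7b-5p and let-7e-5p were lost without D0 replicate 1 or without D6 replicate 1 (adjusted p up to 0.0647 and 0.0647). That of let-7c-5p was lost without D0 replicate 1 (adjusted p = 0.0635), and that of let-7d-5p in 7 of the 12 fits (adjusted p up to 0.179). Without the 3 early libraries of steep GC slope 1 of the 9 strands was called lower, let-7i-5p, and none of these 4.

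Among 6 tested miRNAs known to be induced by p53, 1 rose and 1 fell, a share like the 33.6% called over all 360. miR-34a-5p, a direct p53 target that represses cell cycle genes, lies in an exon of MIR34AHG (chr1:9151735-9151756 on the minus strand). It was at 234 to 396 CPM (median 304) in early and 412 to 649 CPM (median 509) in late libraries (log2 fold change 0.77, SE 0.17, adjusted p = 0.000625), and its highest libraries were those of D16, with 649 and 594 CPM. The call of miR-34a-5p was kept in each fit without 1 library. It was lost without D0 and D16 and with the log2 library total as a covariate. miR-194-5p went the other way, at 50.4 to 115 CPM (median 90.5) in early and 26.4 to 69.3 CPM (median 48.0) in late libraries (log2 fold change -0.89, SE 0.25, adjusted p = 0.00622), and lost its call without D2 replicate 1 (adjusted p = 0.0644). Of 4 tested strands of miR-221 and miR-222, which repress the cell cycle inhibitor p27, 0 changed.

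Inflammation-associated miRNAs included 4 of 10 tested strands that fell and 1 that rose, against 18.1% and 15.6% of all 360, with a median log2 fold change of -0.51 (-0.03 over all 360). miR-155-5p, a regulator of innate immune signalling, lies in an exon of MIR155HG (chr21:25573983-25574006 on the plus strand). It was at 5729 to 7819.6 CPM (median 7149) in early and 2234 to 3346 CPM (median 2965) in late libraries (log2 fold change -1.28, SE 0.15, adjusted p = 2.16e-07). The stages did not overlap, and the libraries of D16, with 2427 and 2234 CPM, were the lowest. miR-132-3p and miR-212-3p come from 1 cluster and share a seed. miR-132-3p was at 567 to 1470.4 CPM (median 778) in early and 339 to 517 CPM (median 404) in late libraries (log2 fold change -1.01, SE 0.20, adjusted p = 0.000214). miR-212-3p was at 21.0 to 156 CPM (median 64.8) in early and 18.9 to 35.2 CPM (median 26.3) in late libraries (log2 fold change -1.42, SE 0.44, adjusted p = 0.0124), and its call was lost without D0 replicate 1, D2 replicate 1 or D6 replicate 1 (adjusted p up to 0.182) and without the 3 early libraries together (adjusted p = 0.189). The strand that rose was miR-146b-5p, a feedback inhibitor of NF-kB signalling. It was at 353 to 947 CPM (median 564) in early and 453 to 2301 CPM (median 812) in late libraries (log2 fold change 0.61, SE 0.18, adjusted p = 0.00824) and was not called without the 3 early libraries (adjusted p = 0.226).

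Of the 5 tested guide strands of the miR-30 family, which acts on mesenchymal and matrix genes, 3 rose and 0 fell. Over all 360 the shares were 15.6% and 18.1%. The median log2 fold change of the 5 was 0.74 (-0.03 over all 360). Summed, these strands went from 28388 to 38508 CPM (median 30186) in early to 36912 to 53758 CPM (median 46756) in late libraries. miR-30a-5p, from an intron of LINC00472 (chr6:71403595-71403616 on the minus strand), was at 8052 to 14654 CPM (median 10072) in early and 14679 to 26232 CPM (median 23542) in late libraries (log2 fold change 1.05, SE 0.14, adjusted p = 8.26e-07), and the D16 libraries were the highest. miR-30c-5p was at 807 to 2129 CPM (median 1388) in early and 1922 to 2946 CPM (median 2275) in late libraries (log2 fold change 0.78, SE 0.16, adjusted p = 0.000457). miR-30e-5p, from an intron of NFYC (chr1:40754371-40754392 on the plus strand), was at 450.3 to 1202 CPM (median 738) in early and 787 to 2298 CPM (median 1018) in late libraries (log2 fold change 0.74, SE 0.24, adjusted p = 0.0163). The seeds of these strands are the same and their 3′ parts differ. Without the 3 early libraries 1 of the 5 strands was called, miR-30a-5p, with a log2 fold change of 0.88, whereas adjusted p was 0.0528 for miR-30c-5p and 0.296 for miR-30e-5p. The call of miR-30e-5p was also lost in 5 of the 12 fits without 1 library (adjusted p up to 0.108).

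Single strands changed in other families tied to matrix and fibroblast state. The miR-29 family targets collagens, and 1 of its 5 tested strands fell, against 18.1% of all 360. This was the passenger strand miR-29b-1-5p from an exon of LINC-PINT (chr7:130877507-130877530 on the minus strand). It was at 436 to 689 CPM (median 589.7) in early and 152 to 254 CPM (median 216) in late libraries (log2 fold change -1.47, SE 0.18, adjusted p = 5.8e-07), with no overlap. The guide strand miR-29a-3p was at 9585 to 17008 CPM (median 12528) in early and 11389 to 21612 CPM (median 13887) in late libraries (log2 fold change 0.19, SE 0.14, adjusted p = 0.32) and was not called. miR-214-3p, made with miR-199a from exons of DNM3OS (chr1:172138816-172138837 on the minus strand) and linked to fibrosis, fell as the 1 called member of 5. It was at 3533 to 6920.1 CPM (median 5057) in early and 1970.3 to 3315 CPM (median 2334) in late libraries (log2 fold change -1.11, SE 0.15, adjusted p = 1.76e-06). Among 4 strands of miR-143 and miR-145, which mark smooth muscle and myofibroblasts, miR-145-5p fell, at 959 to 1452 CPM (median 1175) in early and 609.7 to 1304 CPM (median 855) in late libraries (log2 fold change -0.47, SE 0.14, adjusted p = 0.0081), and it was not called without the 3 early libraries (adjusted p = 0.227). miR-10a-5p, encoded in the HOXB cluster within an intron of HOXB3 (chr17:48579904-48579926 on the minus strand), was 1 of 2 tested HOX cluster strands that rose. It was at 23270.2 to 31010.1 CPM (median 29025) in early and 38389 to 55682 CPM (median 47539) in late libraries (log2 fold change 0.73, SE 0.10, adjusted p = 2.5e-06), and the stages did not overlap. miR-31-5p, an abundant fibroblast miRNA outside the lists, fell, at 7813 to 19184 CPM (median 14046) in early and 5844 to 10498 CPM (median 8085) in late libraries (log2 fold change -0.75, SE 0.14, adjusted p = 0.000163).

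Called strands of the paralogous miR-23a and miR-23b clusters lay on opposite sides. Over both clusters, 2 of 10 tested strands rose and 3 fell, against 15.6% and 18.1% of all 360. With the log2 library total as a covariate 0 rose and 1 fell. There miR-23a-5p, miR-27a-5p, miR-23b-3p and miR-27b-3p were not called. From the cluster on chromosome 19, miR-23a-5p (chr19:13836630-13836651 on the minus strand) was at 220.4 to 905 CPM (median 442) in early and 63.1 to 227 CPM (median 97.5) in late libraries (log2 fold change -2.14, SE 0.29, adjusted p = 1.76e-06). miR-27a-5p of that cluster was at 100.3 to 244 CPM (median 149) in early and 62.0 to 134 CPM (median 81.4) in late libraries (log2 fold change -0.85, SE 0.26, adjusted p = 0.00985). The guide strand miR-27a-3p fell less (log2 fold change -0.45, SE 0.16, adjusted p = 0.0248). From the cluster on chromosome 9, miR-23b-3p, in an intron of AOPEP (chr9:95085265-95085287 on the plus strand), rose, at 2363 to 4154 CPM (median 3358) in early and 4941 to 6912 CPM (median 5049) in late libraries (log2 fold change 0.72, SE 0.12, adjusted p = 3.38e-05). miR-27b-3p, which has the seed of miR-27a-3p and acts on lipid and adipocyte genes, rose too, at 1219 to 2831 CPM (median 1942) in early and 2638 to 5397 CPM (median 3421) in late libraries (log2 fold change 0.86, SE 0.16, adjusted p = 0.000136). The call of miR-27a-5p was lost without D0 replicate 1, D2 replicate 2 or D6 replicate 1 (adjusted p up to 0.0816) and without the 3 early libraries (adjusted p = 0.453).

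In the miR-193 and miR-365 clusters 3 of 6 tested strands fell, each a 5p strand, against 18.1% of all 360. The median log2 fold change was -1.08 (-0.03 over all 360), and -0.43 without the 3 early libraries. With the log2 library total as a covariate 0 of the 6 were called and the median was -0.26. miR-193a-5p (chr17:31560016-31560037 on the plus strand) was at 1410.0 to 3797 CPM (median 2382) in early and 793 to 1407 CPM (median 952) in late libraries (log2 fold change -1.29, SE 0.23, adjusted p = 9.71e-05). miR-365a-5p was at 25.0 to 101 CPM (median 41.9) in early and 3.74 to 16.6 CPM (median 10.3) in late libraries (log2 fold change -2.17, SE 0.44, adjusted p = 0.000357). In both the stages did not overlap. In miR-193b-5p they did, at 33.4 to 156 CPM (median 92.6) in early and 11.0 to 38.7 CPM (median 23.0) in late libraries (log2 fold change -1.94, SE 0.41, adjusted p = 0.000508), and it was not called without D0 replicate 1 (adjusted p = 0.0658) or without the 3 early libraries (adjusted p = 0.278). Of 9 tested strands of the families of miR-99, miR-100 and miR-125, which are abundant in fibroblasts, 2 fell, against 18.1% of all 360. Both were 3p strands, and with the log2 library total as a covariate 0 of the 9 were called. miR-125a-3p was at 96.7 to 277 CPM (median 159) in early and 68.0 to 96.8 CPM (median 89.4) in late libraries (log2 fold change -0.91, SE 0.20, adjusted p = 0.000793). miR-125b-1-3p was at 1765 to 2539 CPM (median 2130.1) in early and 1233 to 1913 CPM (median 1323) in late libraries (log2 fold change -0.56, SE 0.15, adjusted p = 0.0038) and was not called without the 3 early libraries (adjusted p = 0.156).

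Among further abundant families, 1 of 6 tested miR-181 strands was called, against 33.6% of all 360. It was miR-181b-5p, which fell, at 2942 to 4283 CPM (median 3309) in early and 1967 to 2745 CPM (median 2520.5) in late libraries (log2 fold change -0.52, SE 0.11, adjusted p = 0.000402). Of 3 strands of miR-26 and miR-101, which repress the Polycomb enzyme EZH2, 2 rose (15.6% over all 360). miR-26a-5p was at 13785 to 20240.5 CPM (median 16901) in early and 17889 to 33294 CPM (median 23541) in late libraries (log2 fold change 0.47, SE 0.11, adjusted p = 0.00094). miR-101-3p was at 50.3 to 163 CPM (median 96.4) in early and 105 to 428 CPM (median 152) in late libraries (log2 fold change 0.93, SE 0.32, adjusted p = 0.0237). The latter rested on D16 replicate 1, the highest library, without which the log2 fold change was 0.51, and the call was lost in 6 of the 12 fits (adjusted p up to 0.212). Neither miR-26a-5p nor miR-101-3p was called without the 3 early libraries (adjusted p = 0.0643 and 0.296).

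Of 6 tested strands of the miR-130, miR-301, miR-148 and miR-152 families 2 rose and 1 fell, against 15.6% and 18.1% of all 360. miR-148b-3p was at 147 to 524 CPM (median 321) in early and 312 to 771 CPM (median 528) in late libraries (log2 fold change 0.69, SE 0.20, adjusted p = 0.00739). miR-152-3p, a repressor of DNA methyltransferase 1 with the seed of miR-148b-3p, was at 656 to 993 CPM (median 890.2) in early and 876 to 1469 CPM (median 1134) in late libraries (log2 fold change 0.43, SE 0.13, adjusted p = 0.00908). miR-130b-3p fell, at 135 to 195 CPM (median 159) in early and 77.3 to 133 CPM (median 88.4) in late libraries (log2 fold change -0.81, SE 0.22, adjusted p = 0.0044). Without the 3 early libraries none of these 3 was called (adjusted p = 0.206, 0.105 and 0.0712). The value of miR-148b-3p was 1.08 without D0 replicate 2 and 0.47 without D0 replicate 1, where it was not called (adjusted p = 0.0546).

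The last of the abundant families held weak calls. In the group of miR-28, miR-151 and miR-708, 2 of 7 tested strands rose (of all 360, 15.6% rose and 18.1% fell). miR-28-5p was at 522 to 726 CPM (median 645) in early and 733 to 986 CPM (median 794) in late libraries (log2 fold change 0.36, SE 0.14, adjusted p = 0.0452), and the joined entry miR-151a-5p|miR-151b had a log2 fold change of 0.25 (SE 0.090, adjusted p = 0.0297). In the X-linked cluster of miR-532, miR-500 and miR-660, miR-501-5p was the 1 of 9 that fell, at 36.8 to 94.3 CPM (median 55.3) in early and 21.2 to 37.4 CPM (median 26.8) in late libraries (log2 fold change -1.01, SE 0.35, adjusted p = 0.0244). miR-224-5p, 1 of 2 strands of miR-224 and miR-452, fell, at 80.6 to 130.3 CPM (median 107) in early and 37.4 to 99.5 CPM (median 70.0) in late libraries (log2 fold change -0.61, SE 0.24, adjusted p = 0.0452). Each of these 4 was lost without the 3 early libraries (adjusted p = 0.22, 0.254, 0.156 and 0.29). Of the 12 fits without 1 library, 9 ended the call of miR-28-5p, 6 that of the joined entry, 6 that of miR-501-5p and 8 that of miR-224-5p. In the miR-183 cluster 1 strand was tested and 0 changed.

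miRNAs of the imprinted 14q32 locus (DLK1-DIO3), which are expressed from the maternal chromosome within long non-coding transcripts, made up 28 of the 56 miRNAs that rose. Of its 68 tested strands 28 rose and 2 fell, against 15.6% and 18.1% of all 360, the median log2 fold change was 0.58, and 60 values were positive, against 172 of all 360. In 15 of the 68 strands the 6 late libraries lay above the 6 early ones, as in 7.22% of all 360. Their summed level was 62962 to 72344 CPM (median 67861) in early and 87430 to 104905 CPM (median 91090) in late libraries, so the sums did not overlap. In the proximal group 5 of 16 rose and 0 fell (median 0.62), and in the distal group 23 of 52 rose and 2 fell (median 0.57). The counts were 21 rising and 0 falling without the 3 early libraries, 26 and 0 with the GC slopes removed, 16 and 0 with the log2 library total as a covariate, and 18 and 0 without D0 and D16.

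miR-370-3p had the smallest p of all tested miRNAs. It lies within introns of MEG8 and MIR493HG (chr14:100911186-100911207 on the plus strand). Its level was 2512 to 3575 CPM (median 3233) in early and 5268 to 7581 CPM (median 5751) in late libraries (log2 fold change 0.98, SE 0.11, adjusted p = 1.38e-07), with no overlap, and D4 libraries held 6619.6 and 7189 CPM. Both strands of the miR-493 hairpin, from another intron of MIR493HG (chr14:100869075-100869096 on the plus strand for the 5p strand), rose together. miR-493-5p was at 4073 to 7352 CPM (median 5124) in early and 7622 to 10530.1 CPM (median 8540.5) in late libraries (log2 fold change 0.73, SE 0.15, adjusted p = 0.000366). miR-493-3p was at 1081 to 1428 CPM (median 1345) in early and 1935 to 2503 CPM (median 2067) in late libraries (log2 fold change 0.73, SE 0.11, adjusted p = 8.28e-06). miR-127-3p, which lies antisense to the imprinted gene RTL1 (chr14:100883035-100883056 on the plus strand), was at 3253 to 3797 CPM (median 3326) in early and 4638 to 6562 CPM (median 5109.5) in late libraries (log2 fold change 0.61, SE 0.10, adjusted p = 1.96e-05).

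In the distal group miR-379-5p, from an intron of MEG8 (chr14:101022071-101022091 on the plus strand), was at 2137 to 3777 CPM (median 2883) in early and 4499 to 5860.1 CPM (median 5023) in late libraries (log2 fold change 0.81, SE 0.14, adjusted p = 3.38e-05). miR-494-3p was at 3221 to 5535 CPM (median 4201) in early and 5553 to 6653 CPM (median 5797) in late libraries (log2 fold change 0.50, SE 0.11, adjusted p = 0.000625). miR-329-3p was at 1461 to 2226 CPM (median 1851) in early and 2686 to 3293 CPM (median 2933) in late libraries (log2 fold change 0.66, SE 0.11, adjusted p = 3.38e-05). All of these rose with every late library above every early one. miR-487b-3p was at 2279 to 3567 CPM (median 2863) in early and 3846 to 5175 CPM (median 4302) in late libraries (log2 fold change 0.62, SE 0.11, adjusted p = 0.00012). The scarcer miR-323b-3p was at 189 to 312 CPM (median 223) in early and 343 to 470.4 CPM (median 453) in late libraries (log2 fold change 0.86, SE 0.16, adjusted p = 9.71e-05). These also rose without overlap. The strands that fell were miR-323a-5p (log2 fold change -1.17, SE 0.39, adjusted p = 0.0212) and miR-485-5p (log2 fold change -0.51, SE 0.20, adjusted p = 0.0486), both named after their values were seen. miR-432-5p of the proximal group was at 2263 to 4142 CPM (median 3309) in early and 2402 to 4098 CPM (median 2798) in late libraries (log2 fold change -0.11, SE 0.16, adjusted p = 0.617), and its direction turned without the filter on low counts, without D0 replicate 1, without D6 replicate 1, with the log2 library total as a covariate and without the 3 early libraries.

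Of 4 tested strands from imprinted loci other than 14q32, both strands of miR-335 rose and 1 of miR-296 fell, against 15.6% and 18.1% of all 360. miR-335-5p was at 374 to 641 CPM (median 505) in early and 686 to 1247 CPM (median 936) in late libraries (log2 fold change 0.88, SE 0.19, adjusted p = 0.000532), again with no overlap. miR-296-3p was at 8.41 to 184 CPM (median 92.1) in early and 26.4 to 44.9 CPM (median 36.1) in late libraries (log2 fold change -1.09, SE 0.32, adjusted p = 0.00824). Without D2 replicate 1 the value of miR-296-3p was -0.48 (adjusted p = 0.459), and without D0 replicate 1 it was -0.83 (adjusted p = 0.0852).

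**Figure D2:**
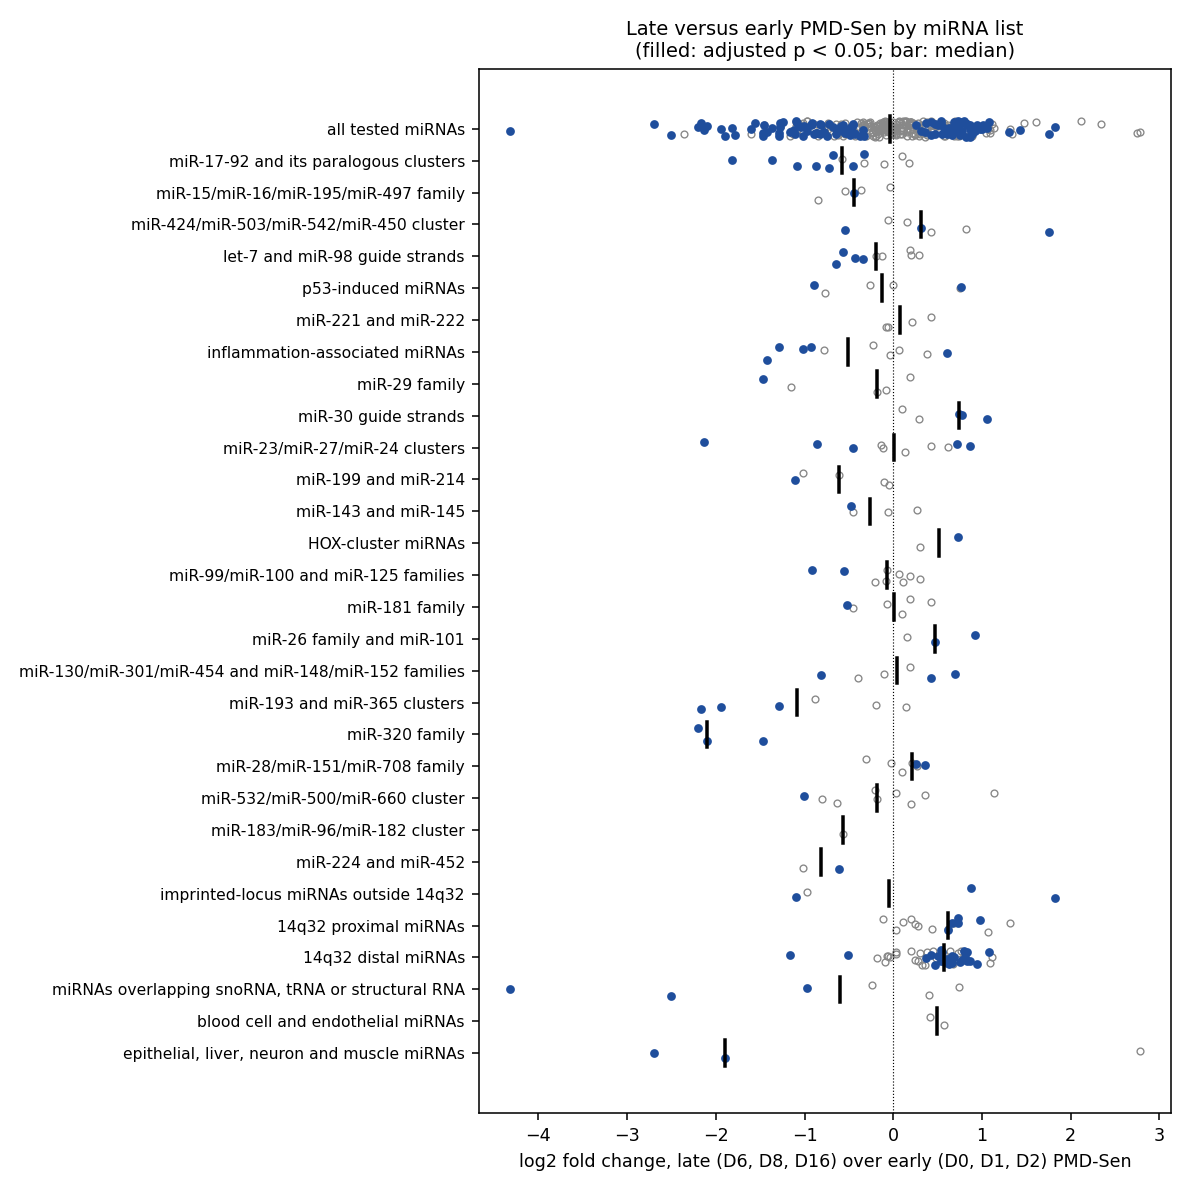
Log2 fold change of late over early PMD-Sen cells for every tested miRNA (top) and for the members of each list, with 1 circle per miRNA, filled where the adjusted p was below 0.05, and a bar at the median. The miR-320 family had a median of -2.10, the miR-17-92 clusters of -0.58 and the 14q32 groups of 0.62 and 0.57, against -0.03 for all 360.

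Small RNAs that overlap snoRNA, tRNA or structural RNA were scarce, and 3 of 6 tested ones fell, against 18.1% of all 360. miR-1260b was at 57.6 to 312 CPM (median 129) in early and 49.8 to 82.9 CPM (median 69.7) in late libraries (log2 fold change -0.97, SE 0.27, adjusted p = 0.00594) and was not called without D2 replicate 2 (adjusted p = 0.0655) or without the 3 early libraries (adjusted p = 0.15). miR-1246 was at 18.9 to 73.5 CPM (median 23.3) in early and 0 to 14.6 CPM (median 8.11) in late libraries, with 0 to 6 counts per late library. miR-4454 was at 0 to 33.6 CPM (median 15.7) in early and 0 to 4.90 CPM (median 0) in late libraries, with 0 to 9 counts. For these last 2 the counts lay near the floor of 3 counts per library, and no late against early fold is given. Folds are given for some other strands with low counts, such as miR-1-3p with 0 to 13 counts per PMD-Sen library. miR-4454 was not called without D0 replicate 1 (adjusted p = 1) or without the 3 early libraries (adjusted p = 1). miR-664a-3p, whose hairpin overlaps a snoRNA, was at 11.1 to 211 CPM (median 84.3) in early and 107 to 151 CPM (median 126) in late libraries (log2 fold change 0.40, SE 0.28, adjusted p = 0.263). It was called without D0 replicate 1, where the log2 fold change was 1.52, and without the 3 early libraries (1.46, adjusted p = 0.00982).

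miRNAs typical of other cell types were scarce. Of 3 tested ones of epithelium, liver or muscle 2 were lower in late libraries, against 18.1% of all 360. The other one, miR-1-3p of muscle, was at 0 to 7.51 CPM in early and 4.87 to 20.7 CPM in late libraries. It was not called (log2 fold change 2.78, SE 1.38, adjusted p = 0.118). With the log2 library total as a covariate neither miR-122-5p nor miR-200c-3p was called. The liver miRNA miR-122-5p, from an exon of MIR122HG (chr18:58451088-58451109 on the plus strand), was at 105 to 264 CPM (median 149) in early and 8.81 to 56.1 CPM (median 23.8) in late libraries (log2 fold change -2.69, SE 0.49, adjusted p = 9.71e-05). The epithelial miRNA miR-200c-3p was at 33.4 to 151 CPM (median 57.4) in early and 7.31 to 33.2 CPM (median 17.1) in late libraries (log2 fold change -1.90, SE 0.40, adjusted p = 0.000448). Neither overlapped between the stages, and the 2 Ctrl libraries held 98.8 and 14.3 CPM of miR-122-5p and 68.8 and 22.9 CPM of miR-200c-3p. The summed level of 7 epithelial markers was 55.1 to 163 CPM in early and 14.6 to 49.8 CPM in late libraries, 1 of the 7 being at 0 in all 12. This sum was mainly miR-200c-3p itself and miR-200b-3p. The latter overlapped between the stages, at 7.32 to 37.8 CPM in early and 7.31 to 19.8 CPM in late libraries. None of the remaining epithelial markers held more than 2 counts in any of the 12 libraries. Of 6 blood cell markers 2 were not listed and 1 was at 0 throughout, and the sum was 0 to 12.6 CPM in early and 0 to 8.81 CPM in late libraries. Of 2 neuronal markers 1 was at 0 throughout, and the sum was at most 3.81 CPM. Muscle markers summed to 0 to 7.51 CPM in early and 4.87 to 22.4 CPM in late libraries, and the 2 endothelial ones to 18.4 to 128 and 67.4 to 141 CPM. The part of RNA from other cells in the results was not tested.

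Of the blood and endothelial list 2 miRNAs were tested and 0 changed. miR-486-5p, an erythroid and muscle miRNA, was at 134 to 497 CPM (median 208) in early and 227 to 412 CPM (median 332) in late libraries (log2 fold change 0.41, SE 0.23, adjusted p = 0.169), and it was called without D1 replicate 2 (0.65, adjusted p = 0.0357) and without the 3 early libraries (0.94, adjusted p = 0.02). miR-126-3p, an endothelial miRNA, was at 18.4 to 128 CPM (median 81.5) in early and 65.5 to 133 CPM (median 107) in late libraries (log2 fold change 0.57, SE 0.27, adjusted p = 0.0951), and it was called without D1 replicate 1 (0.73, adjusted p = 0.0462). miR-625-3p was at 55.1 to 128 CPM (median 104) in early and 71.9 to 98.5 CPM (median 90.3) in late libraries (log2 fold change -0.16, SE 0.22, adjusted p = 0.616) and was not called.

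Between the stages lay D3 and D4. The mean of the D3 and D4 libraries, which took no part in the contrast, lay between the early and late means in 107 of the 121 called miRNAs (88.4%) and in 187 of all 360 (51.9%). The 121 were chosen for separated means, which favours such a place, so these shares are a description and do not tell a gradual from a stepwise course. Among D0, D1 and D2, 0 miRNAs differed by the edgeR test (0%; 25 at an unadjusted p below 0.05, 6.94%), and DESeq2 called 2. Without D0 replicate 1 edgeR called 1, and without D2 replicate 2 it called 2. Among D6, D8 and D16, 1 differed (0.278%; 22 at an unadjusted p below 0.05, 6.11%). It was miR-146b-5p, with 614 and 453 CPM on D6, then 1009 and 575 CPM on D8 and finally 2301 and 1085 CPM on D16. This difference was not called without D6 replicate 2 or D16 replicate 1. The late against early change of miR-146b-5p was 0.39 without D16 replicate 1 and 0.45 without D8 replicate 1, and was called in neither (adjusted p = 0.0814 and 0.0619).

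**Figure D3:**
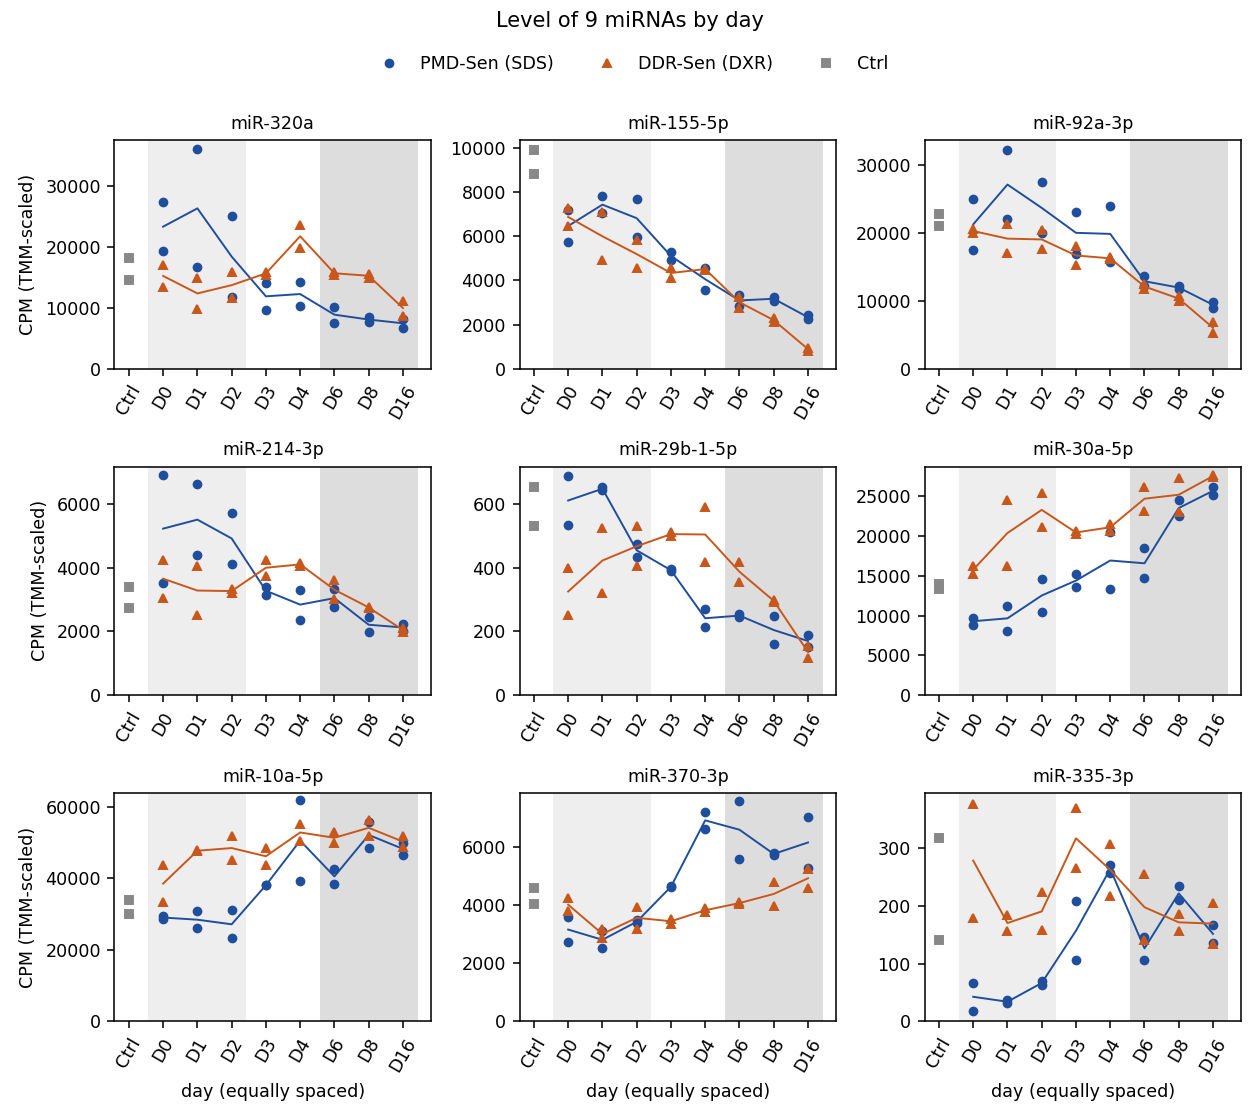
Level in TMM-scaled CPM of 9 miRNAs on each day, with 1 symbol per library and lines through the means of 2 replicates (PMD-Sen, circles; DDR-Sen, triangles; Ctrl, squares), light shading on the early and dark shading on the late days. miR-155-5p and miR-92a-3p declined in both courses, miR-320a declined from its early PMD-Sen levels, and the late PMD-Sen libraries of miR-335-3p lay at 107 CPM or more.

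Ctrl cells placed the 2 stages against untreated cells. Early PMD-Sen cells differed from Ctrl in 12 miRNAs (3.33%) and late PMD-Sen cells in 74 (20.6%). Both comparisons use the same 2 Ctrl libraries, and the numbers were 3 and 12 without Ctrl replicate 2 and 3 and 31 without Ctrl replicate 1. Of the 121 late against early calls 50 were also called in late against Ctrl, in the same direction. Both of these contrasts use the same 6 late libraries, which favours such an overlap, so it is a description only. For miR-335-3p the Ctrl libraries, at 142 and 317 CPM, lay above all 6 early libraries. miR-490-3p, at 103 and 129 CPM in Ctrl, stood above the libraries of both stages.

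Strands of 1 hairpin did not always move together. Of 86 hairpins with both strands tested, 55 had the same sign for both. In 15 both strands were called, 11 of them in the same direction, and the 4 that parted were let-7b, miR-323a, miR-485 and miR-769, named after their values were seen. In miR-769 the 5p strand rose (log2 fold change 0.86, SE 0.17, adjusted p = 0.000236) while the 3p strand fell. Among 33 seeds shared by at least 2 tested miRNAs, 10 had at least 2 called members, all in 1 direction, and 2 had called members in both directions. The latter were the miR-27 seed and that of miR-146a-5p and miR-146b-5p, of which miR-146a-5p fell (log2 fold change -0.93, SE 0.34, adjusted p = 0.0365). Of 3 tested strands with the seed of miR-92a-3p 3 fell, and so did 3 of 4 with the seed of miR-17-5p, against 18.1% of all 360. All of these strands but miR-92b-3p were already counted in the miR-17-92 list, so this is not a further result.

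The direction of change went along with base composition. A mature sequence was at hand for 329 of the 360 tested miRNAs (91.4%). The median GC content was 45.5% in the 53 of these that rose, 54.5% in the 64 that fell and 50.0% in all 329. Across these 329 miRNAs, which share the libraries and are not independent replicates, the log2 fold change and GC content had r = -0.318 in PMD-Sen and r = 0.0743 in DDR-Sen. Removing each library's linear slope on GC content gave 123 calls, 101 of them among the 121. The part of library preparation in it was not tested.

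**Figure D4:**
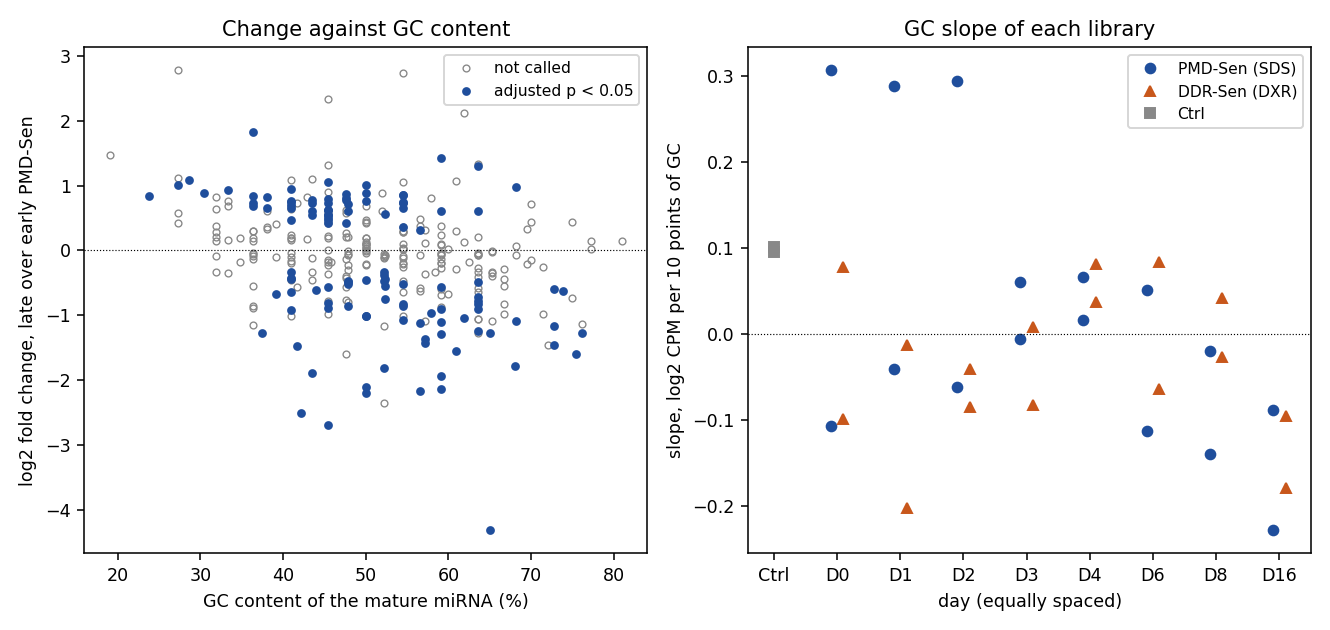
Left, log2 fold change of late over early PMD-Sen cells against the GC content of 329 mature miRNAs, filled where the adjusted p was below 0.05. Right, GC slope of each Ctrl, PMD-Sen and DDR-Sen library by day, taken on deviations from the mean log2 CPM of all 36 libraries. RS libraries are not shown, and RS replicate 1 had a slope of 0.244. The 3 early PMD-Sen libraries at 0.289 to 0.307 stand above all other points on the right.

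The same contrast in DDR-Sen cells, with 12 libraries of its own, called 99 miRNAs (27.5%), 46 higher (12.8%) and 53 lower (14.7%), and 39 passed the thresholds of the study (10.8%), 13 higher (3.61%) and 26 lower (7.22%). Of the 121 PMD-Sen calls 46 were called in the same direction in DDR-Sen (38.0% of the PMD-Sen and 46.5% of the DDR-Sen calls) and 3 in the opposite direction. Across all 360 miRNAs the log2 fold changes of the courses had r = 0.327. miR-155-5p fell in DDR-Sen too (log2 fold change -1.73, SE 0.15, adjusted p = 5.43e-10). So did miR-92a-3p (log2 fold change -1.10, SE 0.13, adjusted p = 3.01e-07) and miR-17-5p (log2 fold change -1.31, SE 0.19, adjusted p = 7.98e-06). In the miR-17-92 list 11 of 13 members fell in DDR-Sen, with a median of -1.31, against 8 and -0.58 in PMD-Sen. Of the 68 strands of 14q32, 23 rose in DDR-Sen and 16 rose in both courses, against 46 and 21 of all 360.

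Tested directly, the late against early change differed between PMD-Sen and DDR-Sen in 56 miRNAs (15.6%), 23 with the higher (6.39%) and 33 with the lower (9.17%) value in PMD-Sen. All 3 tested members of the miR-320 family were among them, with a median log2 fold change of -2.10 in PMD-Sen and -0.10 in DDR-Sen. For miR-320a the difference, PMD-Sen minus DDR-Sen on the log2 scale, was -1.43, SE 0.29, adjusted p = 0.00175. For miR-320c it was -2.10, SE 0.42, adjusted p = 0.00175. miR-335-3p, at -0.24 in DDR-Sen (adjusted p = 0.484), differed by 2.06, SE 0.39, adjusted p = 0.00175. miR-370-3p rose in DDR-Sen (log2 fold change 0.34, SE 0.11, adjusted p = 0.0149) and differed by 0.64, SE 0.15, adjusted p = 0.00475. miR-379-5p was not called in DDR-Sen (log2 fold change -0.17, SE 0.13, adjusted p = 0.347) and differed by 0.98, SE 0.19, adjusted p = 0.00175.

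Scarcer or opposed changes made up others of the 56. miR-877-5p, a miRNA spliced from an intron, fell in PMD-Sen, at 135 to 569.8 CPM (median 309.8) in early and 80.9 to 202 CPM (median 122) in late libraries (log2 fold change -1.27, SE 0.25, adjusted p = 0.000205), and differed by -1.59, SE 0.35, adjusted p = 0.00323. miR-574-5p fell in PMD-Sen, at 2602 to 4503 CPM (median 3579) in early and 2151 to 2881 CPM (median 2322) in late libraries (log2 fold change -0.49, SE 0.12, adjusted p = 0.00237), and rose in DDR-Sen (log2 fold change 0.38, SE 0.12, adjusted p = 0.0185). For some the change lay in DDR-Sen. miR-143-3p was at 4928 to 14110.4 CPM (median 7502) in early and 5558 to 18708 CPM (median 8821) in late libraries of PMD-Sen (log2 fold change 0.27, SE 0.21, adjusted p = 0.341) and fell in DDR-Sen (log2 fold change -1.13, SE 0.22, adjusted p = 0.000237). miR-374b-5p was at 331 to 681 CPM (median 474) in early and 332 to 539 CPM (median 434) in late libraries of PMD-Sen (log2 fold change -0.083, SE 0.16, adjusted p = 0.714) and rose in DDR-Sen (log2 fold change 0.92, SE 0.16, adjusted p = 5.6e-05), as did miR-432-5p (log2 fold change 1.01, SE 0.16, adjusted p = 1.58e-05).

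Without the 3 early PMD-Sen libraries of steep GC slope the difference was called for 12 miRNAs, 11 of them among the 56. For miR-335-3p it was 1.78 (adjusted p = 0.0295), for miR-370-3p 0.77 (adjusted p = 0.0189) and for miR-320c -1.81 (adjusted p = 0.0295). Also called were miR-379-5p, miR-490-3p, miR-574-5p, miR-432-5p and miR-374b-5p. The difference was not called for miR-320a (adjusted p = 0.0543), miR-320b (adjusted p = 0.0627), miR-877-5p (adjusted p = 0.0627) or miR-143-3p (adjusted p = 0.0543). Without D8 replicate 1 of PMD-Sen alone 34 differences were called, 14 higher and 20 lower. The 33 lower ones became 18 without D0 replicate 1 of PMD-Sen or D1 replicate 1 of DDR-Sen, 20 without D2 replicate 2 of DDR-Sen and 21 without D16 replicate 1 of DDR-Sen.

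**Figure D5:**
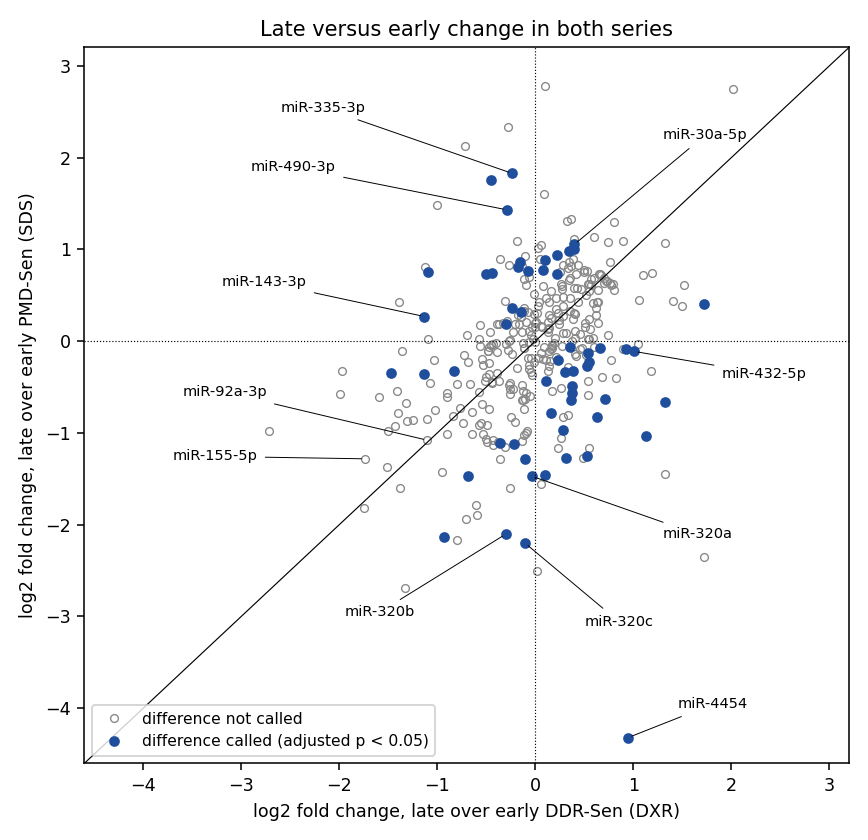
Log2 fold change of late over early cells in PMD-Sen (vertical axis) against DDR-Sen (horizontal axis) for 360 miRNAs, filled where the difference between the courses had an adjusted p below 0.05, with a diagonal at equal change. miR-155-5p and miR-92a-3p fell in both courses, and the 3 miR-320 members had a median of -0.10 in DDR-Sen and of -2.10 in PMD-Sen.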

How the data were processed

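Small RNA libraries of WI-38 cells had been made with the NEXTFLEX Small RNA-Seq Kit v3 from 100 ng of total RNA and sequenced on an Illumina MiSeq. The authors deposited expected counts per mature miRNA, for which the exceRpt pipeline (version 4.6.2) trimmed reads, mapped them to GRCh38 and aligned them to miRBase. How reads fitting several miRNAs were counted was not given in the sources used here. Of 54288 deposited values 1003 were not whole, and all were rounded. The table listed 1508 entries, 18 of which joined names. After filtering by expression over the 18 conditions, 360 entries were tested, and they held over 99.7% of every library. R 4.3.3 and edgeR 4.0.16 were used: TMM scaling, 1 coefficient per condition over all 36 libraries, and quasi-likelihood tests of the mean of the late days minus the mean of the early days, with Benjamini-Hochberg adjustment over the 360 entries and a threshold of 0.05. The same fit gave the DDR-Sen contrast, the difference between both courses, the differences within each stage and both stages against Ctrl. The test was checked on simulated data. Depth per library limits scarce miRNAs, and a floor of 3 counts per library was used. Counting by strand was not given in the sources used here.

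Alternatives were other scalings and filters, DESeq2 1.42.0, fits of only the compared libraries, a replicate block, thinning, leaving out days or single libraries, and, chosen after seeing the data, GC slopes removed, the log2 library total as a covariate and 3 early libraries left out. No label ties same-numbered libraries to a shared culture, batch or day, and they were not paired. The members and lists were chosen with earlier results of these data known. Named miRNAs were those changed over 2-fold without overlap of the libraries (up to 10 in each direction), the 5 most abundant called in each direction, miRNAs named by the study, up to 4 called members of smallest p per list, the 10 differences between the courses of smallest p, and those called within a stage. Sequences came from RefSeq (GRCh38.p14) and host genes from GENCODE v44.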

Additional observations from a re-analysis of the deposited data

Results flagged for a closer look

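Of 158 sets of 6 libraries (79 named miRNAs in early and late PMD-Sen), 12 held a library whose gap to the nearest other exceeded 0.625 of the range, where chance flags about 1 in 20 sets. In early libraries D0 replicate 1 was highest for miR-1246 (gap 0.733 of the range), miR-132-3p (0.631) and miR-424-3p (0.658). D0 replicate 2 was highest for miR-143-3p (0.662), D1 replicate 2 for miR-365a-5p (0.701) and miR-200c-3p (0.661), and D2 replicate 2 for miR-769-3p (0.712). In late libraries D16 replicate 1 was highest for miR-146b-5p (0.658), miR-101-3p (0.637) and miR-143-3p (0.666). D16 replicate 2 was highest for miR-494-3p (0.628) and D6 replicate 1 for miR-130b-3p (0.687).

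For 32 named miRNAs the late against early change differed between PMD-Sen and DDR-Sen (adjusted p below 0.05, edgeR), given here as the log2 fold change in PMD-Sen minus that in DDR-Sen. It was higher in PMD-Sen for miR-542-3p (2.21), miR-335-3p (2.06), miR-490-3p (1.72), miR-143-3p (1.40), miR-30e-5p (1.19), miR-379-5p (0.98), miR-34a-5p (0.84), miR-335-5p (0.79), miR-30a-5p (0.66), miR-370-3p (0.64), miR-30a-3p (0.61), miR-28-5p (0.60), miR-10a-5p (0.51) and miR-503-5p (0.46). It was lower in PMD-Sen for the miR-320 family, with -2.10 for miR-320c, -1.80 for miR-320b and -1.43 for miR-320a. Further lower values were those of miR-877-5p (-1.59), miR-664a-3p (-1.32), miR-1260b (-1.25), miR-23a-5p (-1.20), miR-193a-5p (-1.18), miR-432-5p (-1.12), miR-374b-5p (-1.004), miR-574-5p (-0.87), miR-29b-1-5p (-0.78) and miR-214-3p (-0.75). The let-7 strands lay at -1.01 for let-7c-5p, -0.94 for let-7b-5p, -0.64 for let-7d-5p and -0.54 for let-7e-5p. The value of miR-4454 (-5.27) rests on counts near 0 and depends on the prior count.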

How the results depend on the processing

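Counts of calls moved by over 1.5 times under many of the alternatives, some fits without 1 library among them, and the cause was not tested. For late against early PMD-Sen (121; 56 higher, 65 lower), the numbers were 65, 28 and 37 without D0 and D16, 38, 21 and 17 with the log2 library total as a covariate, and 49, 13 and 36 at the thresholds of the study. With the 3 early libraries left out they were 75 in all and 35 lower, and without the filter on low counts 37 were lower. For DDR-Sen (99; 46 and 53) they were 58, 28 and 30 after thinning every library to the smallest total, 44, 26 and 18 without D0 and D16, 39, 13 and 26 at the thresholds of the study, and 33 were lower without D16. For the difference between the courses (56; 23 and 33) they were 4, 1 and 3 with the log2 library total, 12, 7 and 5 with the 3 early libraries left out, 11 higher without D16 as well as without D0 and D16, and 19 lower without the filter. Differences among the early days numbered 2 without the filter and 2 by DESeq2, and those among the late days 3 without the filter and 0 with only the compared libraries. Lower calls of early PMD-Sen against Ctrl (5) were 8 with the size factors of DESeq2 and 9 by DESeq2. Without the filter the median log2 fold change of PMD-Sen was 0.12 in place of -0.03, so values there are relative to a shifted centre.

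Leaving out 1 library at a time gave 91 to 140 calls for PMD-Sen (42 to 71 higher, 42 to 69 lower), 77 to 96 for DDR-Sen (38 to 50 and 37 to 53) and 34 to 72 for the difference (14 to 34 and 18 to 38). It gave 0 to 2 among the early and 0 to 1 among the late days. Against Ctrl it gave 3 to 15 for the early stage (1 to 7 and 2 to 10), where D0 replicate 1 left out gave the 10, and 12 to 71 for the late stage (5 to 35 and 7 to 36), where either Ctrl library left out gave the lowest numbers.

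Of the 79 named miRNAs 8 turned in direction, and of these miR-101-3p and miR-30e-5p were called. miR-106b-5p was at -0.14 without D16, -0.048 without D0 and D16, -0.48 with the log2 library total, -0.23 with the 3 early libraries left out and -0.014 without D1 replicate 2, the range without 1 library being -0.014 to 0.64. miR-432-5p was at 0.043 without the filter, 0.29 with the log2 library total, 0.14 with the 3 early libraries left out, 0.027 without D0 replicate 1 and 0.036 without D6 replicate 1 (-0.22 to 0.036 without 1 library). miR-143-3p was at -0.031 without D16, -0.49 with the log2 library total and -0.042 with the 3 early libraries left out. miR-374b-5p was at 0.063 without the filter and 0.0046 without D16. miR-101-3p was at -0.42 and miR-30e-5p at -0.34 with the log2 library total, miR-126-3p at -0.17 without D0 and D16, and miR-625-3p at 0.0077 without D2 replicate 1 (-0.29 to 0.0077 without 1 library).

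With the replicate number as a block (replicate block), 122 miRNAs were called and 79 of 79 named miRNAs kept their call. Replicate 1 minus replicate 2 differences correlated at 0.14 to 0.33 in the 10 pairs of conditions among D1, D2, D6, D8 and D16. In the 5 pairs with D0 they correlated at -0.25 to -0.062. The GC slope was lower in replicate 1 than in replicate 2 on D1, D2, D6, D8 and D16 and higher on D0. No label gives a shared source of same-numbered libraries, and the cause of these correlations was not tested. Depth limits the scarce miRNAs, since an early library of 81668 counts holds few reads of a miRNA at the level of miR-490-3p.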
